A study of Mus musculus with 24 samples.

Results

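Matrix metalloproteinases (MMPs) and their tissue inhibitors (TIMPs) were followed in RNA of the mouse choroid, the vessel layer under the retina, with and without laser treatment and with and without the Ceacam1 gene. In its cell sorting methods, the study uses the word choroid for the dissected pigment epithelium, choroid and sclera together. The set held 10 of the 56065 genes of the table: Timp1, Timp2, Timp3, Timp4, Mmp2, Mmp3, Mmp9, Mmp12, Mmp13 and Mmp14. Its genes were listed by name, with measured values in view. The set was chosen on the laser response, in which Timp1 stood high, and on Timp3 as a gene of the retinal pigment epithelium (RPE). Laser differences of the 10 genes are therefore given as a description without a test. All 10 genes had a mean normalized count of at least 10 in each fit, the minimum for testing.

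The mice were young adults on a C57BL/6J background, and Ceacam1-/- mice, littermates of the wild type mice, carry a germline deletion of the first exons of Ceacam1, which encodes a cell adhesion molecule. There were 4 wild type and 4 Ceacam1-/- libraries without laser, and 9 wild type and 7 Ceacam1-/- libraries with laser. In the laser groups, 6 spots of 200 µm were set per eye at 150 mW for 100 ms. The time between laser and tissue collection and the sex of each mouse are not given in the sources used here. For the laser libraries, whether each came from a separate mouse is not stated either, so tests on them measure the spread between libraries, which may be technical in part. SMART-Seq libraries, which amplify full-length cDNA from little RNA, were used. Levels are normalized counts, which are estimated reads divided by factors for library size and transcript length. They summed to between 23704346 and 35094410 per library. In bulk tissue, fewer cells of a type and less RNA per cell cannot be told apart.

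MMPs are zinc-dependent enzymes, secreted or membrane-bound, that are made as inactive proenzymes and together cut most components of the extracellular matrix. TIMPs bind the active site of these enzymes and block it. In the eye, TIMP3 is made by the RPE and is stored in Bruch's membrane, the matrix between RPE and choroid. MMPs are studied in laser-induced choroidal neovascularization because vessels that grow from the choroid have to pass this membrane.

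Many MMP genes carry a site for AP-1, the Fos and Jun dimer that answers to growth factors and cytokines, shortly before their transcription start. The 250 bases before the start of the canonical transcript were therefore read from GRCm39 and searched on both strands for TGANTCA. The motif was found in 4 of the 10 genes, Mmp3, Mmp9, Mmp12 and Mmp13, and in 6.18% of 21757 promoters of protein-coding genes. It was also present in Mmp10, which lies in the same gene cluster as Mmp3, Mmp12 and Mmp13. Mmp8, another gene of the cluster that was searched, had no match. The 5 sequences are shown so that the shared letters and their surroundings can be compared. Each is printed 5′ to 3′ on the plus strand, the strand of all 5 genes, with 25 bases on each side and the motif in capitals.
Mmp13: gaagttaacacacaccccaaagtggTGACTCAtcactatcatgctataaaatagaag
Mmp12: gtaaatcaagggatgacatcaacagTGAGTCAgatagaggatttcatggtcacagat
Mmp3: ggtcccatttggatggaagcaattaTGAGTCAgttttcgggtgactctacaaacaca
Mmp10: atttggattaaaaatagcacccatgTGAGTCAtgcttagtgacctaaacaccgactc
Mmp9: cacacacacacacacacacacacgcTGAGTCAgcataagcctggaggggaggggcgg
The windows are chr9:7272454-7272510 for Mmp13, chr9:7347305-7347361 for Mmp12, chr9:7445751-7445807 for Mmp3, chr9:7502255-7502311 for Mmp10 and chr2:164790045-164790101 for Mmp9, and none overlapped an exon of its gene. Those of Mmp9 and Mmp12 lie inside the annotated gene, in an intron of longer transcripts that start farther upstream. The 250 bases searched for Timp1, Timp2 and Timp4, which had no AP-1 match, overlap an exon of another transcript of the same gene. Relative to the start, the first base of the motif lay at -35 in Mmp13, -44 in Mmp12, -46 in Mmp3, -73 in Mmp10 and -69 in Mmp9. Mmp9 and Mmp12 share the letters TGAGTCA with Mmp3 and Mmp10, and Mmp13 has TGACTCA, which is the same sequence read on the other strand. The motif TATAAA was found in Mmp3 and Mmp13 (2 of 10, beside 11.9% of all promoters) and TTCNNNGAA, the core letters of a STAT site, in 0 of 10 (7.7% of all promoters), and neither overlapped the AP-1 letters. A match of letters is not evidence of binding, and no match says only that these letters are not in this window.

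Ceacam1 was examined first as a check of the labels. Its level without laser was 958, 5027, 1242 and 4596 in wild type and 405, 505, 508 and 1171 in Ceacam1-/- libraries, so that the groups overlapped. With laser it ran from 774 to 8367 (median 996) in wild type and from 67.8 to 905 (median 335) in Ceacam1-/- libraries, again with some overlap. The log2 difference between genotypes was -1.95 ± 0.60 (SE) without laser (limma, adjusted p = 0.999) and -2.17 ± 0.52 with laser (limma, adjusted p = 0.104). The deleted allele keeps the later exons, so their reads may still be counted.

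The Ceacam1-/- laser libraries 14, 15 and 18 stood apart from the other laser libraries in their levels of cell type markers. The summed level of 7 photoreceptor genes was 884263, 505984 and 947070.0 in them, against 5522 to 200688 in the other 13. The sum of 7 RPE genes, led by Ttr in these groups, was 68475, 53154 and 39383, against 172871 to 506478. Their sums of endothelial, mural, melanocyte, myeloid and fibroblast markers were also below those of every other laser library. The muscle, neutrophil, mast cell and glial sums overlapped with those of other laser libraries. Among libraries without laser, wild type libraries 21 and 27 and Ceacam1-/- library 23 also had high photoreceptor sums, of 511039, 244025 and 556460.0. No RPE or photoreceptor marker was at 0 in any library. Fitted differences of the 10 genes in Ceacam1-/- laser libraries are given with and without libraries 14, 15 and 18, a choice made after the marker levels were seen. All libraries without laser were kept in these fits. The laser differences without libraries 14, 15 and 18 thus set a group chosen on markers against one that was not. Single libraries were also left out in turn. In Ceacam1-/- mice the log2 laser difference was then lowest without library 23 for Timp1 (3.91), Mmp2 (0.11), Mmp3 (2.77), Mmp12 (3.08) and Mmp13 (3.61). It was highest without library 23 for Mmp9 (4.24).

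Per kilobase of the canonical transcript, which allows genes to be compared, Timp3 was the most abundant member in every group. In wild type choroid without laser the mean level per kb was 12316 ± 4383 (SD, n = 4) for Timp3 and 2813 ± 687 for Timp2. Mmp3, Mmp2 and Mmp14 followed at 1097 ± 458, 907 ± 362 and 887 ± 398, apart by less than 1 SD, where the larger SD of a pair of neighbours is meant here and in what follows. Timp1 at 185 ± 81.3 and Timp4 at 122 ± 38.3 also lay within 1 SD of each other. Mmp12 at 41.1 ± 11.4, Mmp9 at 28.8 ± 27.2 and Mmp13 at 5.71 ± 5.43 were the lowest, with neighbours within the SD of Mmp9 but apart by more than the smaller SD of each pair. In wild type laser libraries (n = 9) Timp3 was at 12994 ± 5615, and Timp1 stood at 4996 ± 2398 behind Timp2 at 5727 ± 1073. Timp2 lay below Timp3 by more than 1 SD. From Timp2 down, Timp1, Mmp14 (3043 ± 547), Mmp3 (2488 ± 1486) and Mmp2 (1637 ± 319.7) were each within 1 SD of the gene before. Mmp12 (655 ± 217) and Mmp9 (223 ± 98.9) followed, and Mmp13 (74.4 ± 35.02) and Timp4 (54.4 ± 37.2) were lowest.

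In the Ceacam1-/- libraries the order per kb was much the same. Without laser (n = 4) it began with Timp3 at 10154 ± 2439.6, Timp2 at 2389 ± 295 and Mmp2 at 1010.2 ± 630.4, and ended with Mmp13 at 4.91 ± 4.69. With laser (n = 7) it began with Timp3 at 7340.5 ± 5121, Timp2 at 4732 ± 3366, Timp1 at 4042 ± 1899.8 and Mmp3 at 3870.5 ± 2766, none of them separated from the next by more than 1 SD, and ended with Timp4 at 29.7 ± 22.03. Libraries 14, 15 and 18 lower several of these means, and without them (n = 4) Timp3 stood at 11366 ± 1357, Timp2 at 7219.7 ± 1799.8, Timp1 at 5502 ± 761, Mmp3 at 4462 ± 2643, Mmp2 at 2923 ± 460.2 and Mmp14 at 3703 ± 256, of which Mmp2 had been at 1873 ± 1355 and Mmp14 at 2494 ± 1541 with them. Timp3 made up 79.2 ± 4.28% of the summed TIMP level per kb in wild type libraries without laser and 78.4 ± 2.63% in Ceacam1-/- libraries. With laser its share was 52.97 ± 14.5% and 42.2 ± 6.89%. The summed level of the 4 TIMPs divided by that of the 6 MMPs was 5.80 ± 2.46 and 7.22 ± 3.70 without laser and 3.03 ± 0.715 and 1.89 ± 0.777 with laser, in the same order of genotypes. Without libraries 14, 15 and 18 the Ceacam1-/- laser libraries had a Timp3 share of 47.1 ± 1.82% and a ratio of 2.03 ± 0.298. These are ratios of RNA levels, not of protein.

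**Figure D1:**
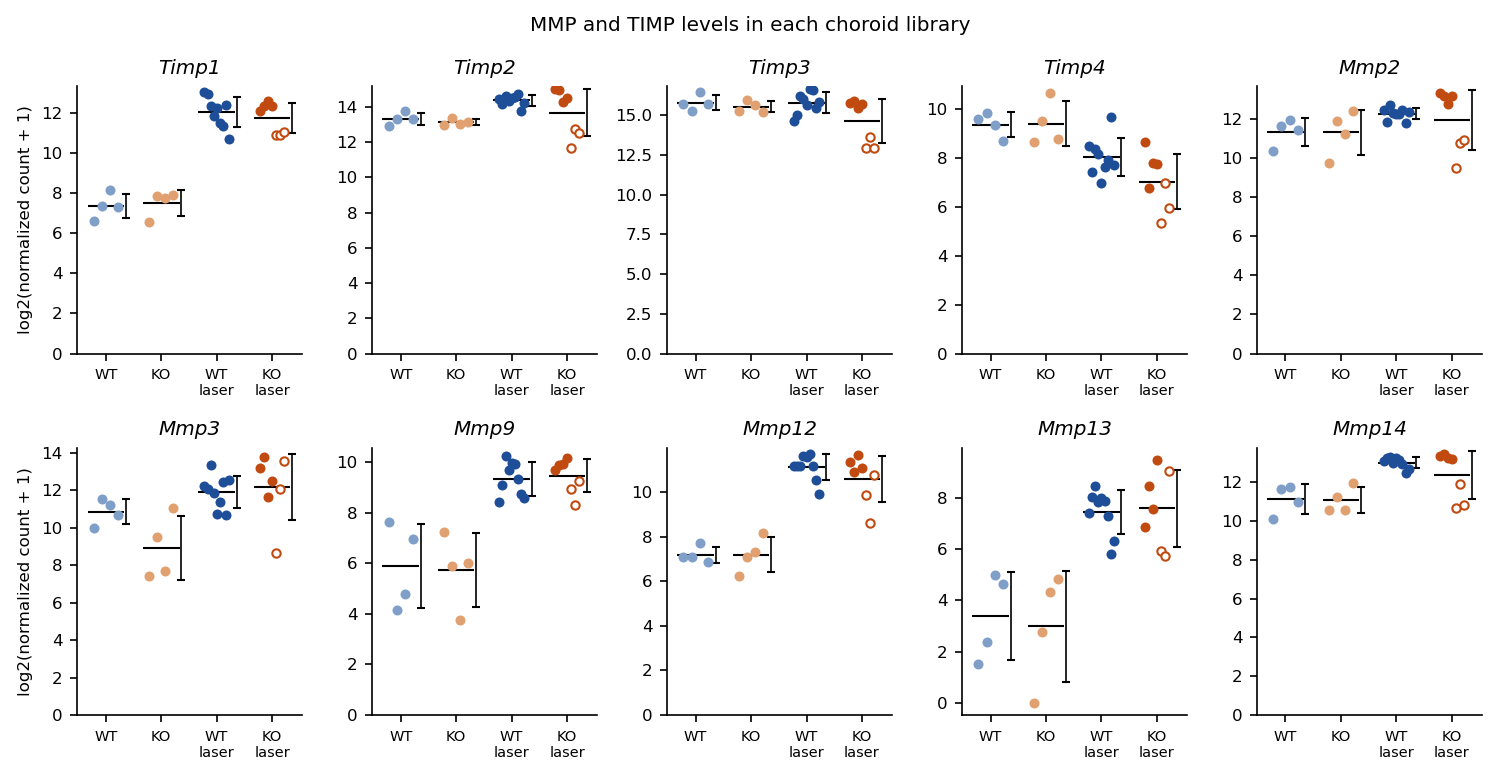
Levels of the 10 genes in each of 24 libraries, as log2 of the normalized count plus 1 on the vertical axis, by genotype (WT, wild type, KO, Ceacam1-/-) and laser. Points are libraries, horizontal lines are group means, error bars are 1 SD, and open points are Ceacam1-/- laser libraries 14, 15 and 18, which lie low for Timp2, Timp3, Mmp2 and Mmp14.

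Timp1 (ENSMUSG00000001131, chrX:20736316-20740976, plus strand) encodes a secreted inhibitor that is known to be induced by cytokines. Without laser, wild type levels were 97.1, 162, 279 and 155, and those of Ceacam1-/- libraries were 93.1, 225, 210.2 and 239. With laser, levels ran from 1655 to 8177 (median 4847) in 9 wild type and from 1887 to 6013 (median 4269) in 7 Ceacam1-/- libraries. All laser libraries lay above all libraries without laser in both genotypes, including libraries 14, 15 and 18 at 1905, 1887 and 2097. The log2 difference, laser minus no laser, was 4.69 ± 0.41 in wild type and 4.23 ± 0.43 in Ceacam1-/- mice, the latter 4.82 ± 0.42 without the 3 libraries. Timp1 lies inside Syn1, a neuronal gene on the opposite strand, with 0 shared exon bases. Syn1 levels ran from 78.5 to 2850.1 (median 389.6) in Ceacam1-/- laser libraries, where libraries 14, 15 and 18 held 1583, 864 and 2850.1.

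Timp2 (ENSMUSG00000017466, chr11:118191887-118246566, minus strand) encodes an inhibitor that also helps MMP14 to activate pro-MMP2. Timp2 was measured at 7758, 10331, 13988 and 10093 in wild type and at 8003, 10507, 8353 and 8951 in Ceacam1-/- libraries without laser. Laser libraries ranged from 13825 to 26774 (median 22351) in wild type (n = 9) and from 3229 to 33201 (median 19568) in Ceacam1-/- mice (n = 7). In wild type mice the lowest laser library lay just below the highest library without laser. In Ceacam1-/- mice libraries 14, 15 and 18 held 3229, 6885 and 5805, below all libraries without laser, and the other 4 held 19568 to 33201. The log2 difference with laser was 1.03 ± 0.44 in wild type and 0.55 ± 0.46 in Ceacam1-/- mice, or 1.57 ± 0.22 without these libraries.

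Timp3 (ENSMUSG00000020044, chr10:86136236-86185371, plus strand) encodes the matrix-bound inhibitor of Bruch's membrane, mutated in Sorsby fundus dystrophy. The 4 wild type libraries without laser held 52067, 39830.0, 87901 and 52885, and the 4 Ceacam1-/- libraries held 39672, 62822, 51269 and 38073. In the laser groups Timp3 ranged from 25732 to 102211 (median 57505) in wild type and from 7767 to 60046 (median 44891) in Ceacam1-/- libraries. The groups overlapped in wild type, where the laser libraries spanned a wider range than those without laser. Libraries 14, 15 and 18 held 7873, 12318 and 7767, below every other library, and the other 4 Ceacam1-/- laser libraries held 44891 to 60046. The log2 difference was 0.01 ± 0.52 in wild type and -0.91 ± 0.54 in Ceacam1-/- mice, or 0.18 ± 0.37 without the 3. The gene lies inside Syn3 on the opposite strand, and 1734 exon bases are shared over all transcripts. Syn3 was measured at 617 to 4128 (median 799) in wild type laser libraries, at 691, 611 and 585 in libraries 14, 15 and 18 and at up to 4881 without laser, below Timp3 in every library.

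Timp4 (ENSMUSG00000030317, chr6:115187773-115229336, minus strand) encodes an inhibitor best known from heart and other muscle. Without laser, wild type levels were 779, 911, 641 and 409, and those of Ceacam1-/- libraries were 400.2, 729, 1634 and 440.3. With laser, levels ran from 124 to 823 (median 241) in 9 wild type and from 39.7 to 398 (median 124) in 7 Ceacam1-/- libraries. Levels with laser were on average lower in both genotypes. All Ceacam1-/- laser libraries lay below those without laser, if narrowly (398 against 400.2), whereas wild type libraries overlapped. The log2 difference was -1.32 ± 0.51 in wild type and -2.38 ± 0.53 in Ceacam1-/- mice, or -1.67 ± 0.50 without libraries 14, 15 and 18, which held 39.7, 124 and 60.8. The summed level of 6 skeletal muscle genes, led by Acta1, was 252326 to 461665 without and 65352 to 267307 with laser in wild type libraries. In Ceacam1-/- libraries this sum was 42100.3 to 866007 without and 10099 to 185462 with laser, and its part in the Timp4 difference was not tested. Timp4 lies inside Syn2 on the opposite strand with 1142 shared exon bases, and Syn2 ran from 41.4 to 132 (median 92.1) in wild type laser libraries. In Ceacam1-/- libraries 14, 15 and 18 Syn2 held 373, 274 and 569, and in Ceacam1-/- library 23 without laser it held 509.7 beside 400.2 for Timp4, so that Syn2 was above Timp4 in these 4. How the counting treated strand is not given in the sources used here, so shared reads could have gone to either gene.

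Mmp2 (ENSMUSG00000031740, chr8:93553902-93580049, plus strand) encodes gelatinase A, a collagen IV-degrading enzyme of stromal cells. Mmp2 was measured at 1301, 3243, 3948 and 2745 in wild type and at 868, 3852, 2376 and 5415 in Ceacam1-/- libraries without laser. Laser libraries ranged from 3563 to 6730.4 (median 5078) in wild type (n = 9) and from 724 to 10396 (median 7037) in Ceacam1-/- mice (n = 7). The 9 wild type laser libraries overlapped the range without laser. The 4 Ceacam1-/- laser libraries other than 14, 15 and 18 held 7037 to 10396, above every wild type library, and those 3 held 724, 1723 and 1942. The log2 difference with laser was 0.94 ± 0.57 in wild type and 0.63 ± 0.59 in Ceacam1-/- mice, or 1.81 ± 0.40 without the 3. Its exons share 860 bases with Gm45472 on the opposite strand, which was measured at 56.5 to 159 (median 102) in wild type laser libraries and at 415, 251 and 467 in libraries 14, 15 and 18. In Ceacam1-/- library 23 without laser, Gm45472 was at 269 beside 868 for Mmp2.

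Mmp9 (ENSMUSG00000017737, chr2:164780439-164797771, plus strand) encodes gelatinase B, which neutrophils and macrophages carry. The 4 wild type libraries without laser held 199.8, 17.1, 26.6 and 123, and the 4 Ceacam1-/- libraries held 152, 59.2, 12.5 and 63.9. In the laser groups Mmp9 ranged from 343 to 1227 (median 644) in wild type and from 319.7 to 1168 (median 817) in Ceacam1-/- libraries. All laser libraries lay above all libraries without laser in both genotypes, although library 21 without laser reached 199.8. The log2 difference was 3.45 ± 0.58 in wild type and 3.73 ± 0.60 in Ceacam1-/- mice, or 4.19 ± 0.68 without libraries 14, 15 and 18.

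Mmp3 (ENSMUSG00000043613, chr9:7445822-7455975, plus strand) encodes stromelysin-1, which cuts many matrix proteins and activates other pro-MMPs. Without laser, wild type levels were 1012, 2903, 2349 and 1640.5, and those of Ceacam1-/- libraries were 171, 719, 206 and 2138. With laser, levels ran from 1639 to 10304 (median 4335) in 9 wild type and from 398 to 14087 (median 5671) in 7 Ceacam1-/- libraries. Without laser, 3 of 4 Ceacam1-/- libraries lay below all wild type libraries. With laser the genotypes overlapped widely, and libraries 14, 15 and 18 were themselves spread over 398, 4219.8 and 12034. The log2 difference with laser was 1.06 ± 0.74 in wild type and 3.26 ± 0.77 in Ceacam1-/- mice, or 3.84 ± 0.68 without the 3.

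Mmp12 (ENSMUSG00000049723, chr9:7344381-7369499, plus strand) encodes macrophage elastase. Mmp12 was measured at 134, 133, 208 and 116 in wild type and at 73.3, 137, 156 and 286 in Ceacam1-/- libraries without laser. Laser libraries ranged from 956 to 3377 (median 2314) in wild type (n = 9) and from 396 to 3199.6 (median 1889.8) in Ceacam1-/- mice (n = 7). No laser library overlapped a library without laser in either genotype. The log2 difference was 3.93 ± 0.43 in wild type and 3.40 ± 0.45 in Ceacam1-/- mice, or 4.04 ± 0.37 without libraries 14, 15 and 18, which held 925, 396 and 1743.

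Mmp13 (ENSMUSG00000050578, chr9:7272514-7283331, plus strand) encodes collagenase-3, a main interstitial collagenase of the mouse. The 4 wild type libraries without laser held 1.85, 4.15, 31.1 and 23.98, and the 4 Ceacam1-/- libraries held 0, 5.80, 19.01 and 27.7. In the laser groups Mmp13 ranged from 55.3 to 351 (median 229.6) in wild type and from 51.9 to 718 (median 190.0) in Ceacam1-/- libraries. It was the least abundant MMP of the set, with 1 library without laser at 0, and again no laser library overlapped a library without laser. The log2 difference was 4.07 ± 0.83 in wild type and 4.60 ± 0.86 in Ceacam1-/- mice, or 5.12 ± 0.91 without the 3 libraries. Leaving out single libraries moved it from 3.45 (without library 21) to 4.61 (without 26) in wild type and from 3.61 (without 23) to 5.22 (without 28) in Ceacam1-/- mice. At levels this low, the size of the difference depends on the pseudocount of 1.

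Mmp14 (ENSMUSG00000000957, chr14:54668878-54682821, plus strand) encodes the membrane-bound MT1-MMP, a collagenase and activator of pro-MMP2. Without laser, wild type levels were 1122, 3259, 3495 and 2017, and those of Ceacam1-/- libraries were 1509.7, 2457, 1509 and 3950.5. With laser, levels ran from 5840.4 to 10259.7 (median 8728) in 9 wild type and from 1644 to 11295 (median 9639.9) in 7 Ceacam1-/- libraries. All wild type laser libraries lay above the libraries without laser. In Ceacam1-/- mice this held for 4 libraries, at 9639.9 to 11295, whereas libraries 14, 15 and 18 held 1644, 3909 and 1819.6. The log2 difference was 1.89 ± 0.45 in wild type and 1.31 ± 0.47 in Ceacam1-/- mice, or 2.25 ± 0.31 without the 3. Its exons share 174 bases with Gm62879 on the opposite strand.

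Counted over the set, 5 genes in wild type mice (Timp1, Mmp9, Mmp12, Mmp13 and Mmp14) and 4 in Ceacam1-/- mice (Timp1, Mmp9, Mmp12 and Mmp13) had all laser libraries above all libraries without laser. Over the 19950 genes tested, 4.5% did so in wild type, 1.17% in Ceacam1-/- and 0.506% in both genotypes, but the set was selected on this contrast and nothing is read from its count.

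**Figure D2:**
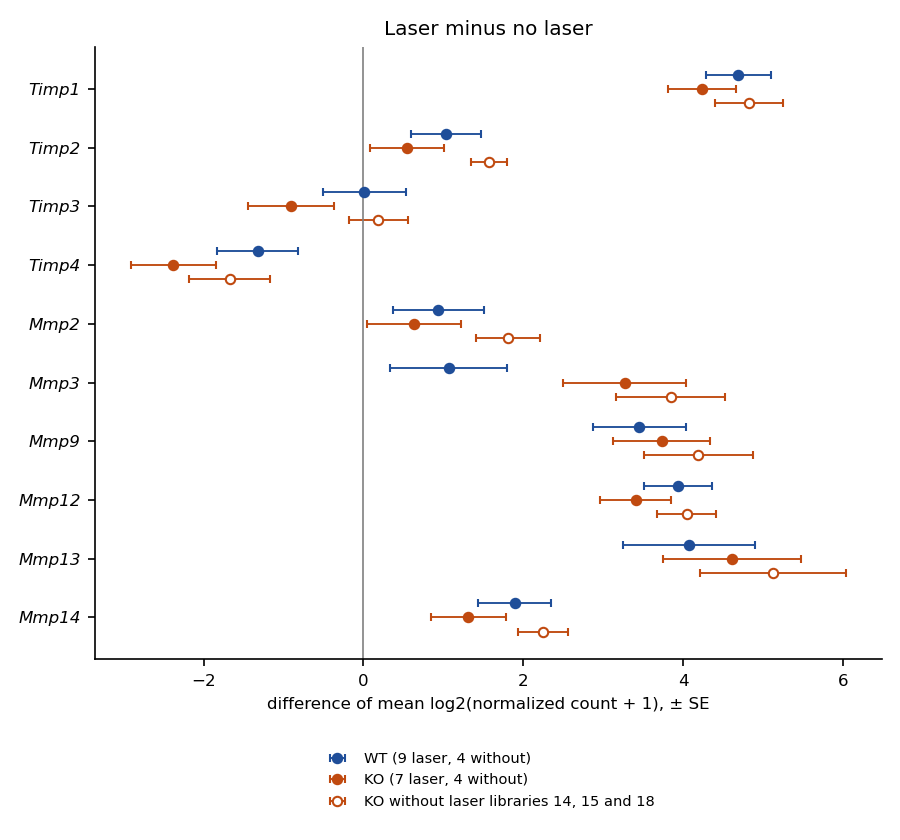
Laser minus no laser for the 10 genes, as the difference of mean log2(normalized count + 1) with its SE, in wild type (WT), in Ceacam1-/- (KO), and in Ceacam1-/- without laser libraries 14, 15 and 18 (open points). Timp1, Mmp9, Mmp12 and Mmp13 lie above 3 in both genotypes, and Timp3 lies near 0 except in Ceacam1-/- mice with all libraries.

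Whether the deletion of Ceacam1 altered MMP and TIMP levels was tested in the libraries without laser, the comparison that the study made, and in the laser libraries. Neither contrast was used to choose the set. Without laser, limma called 0 of the 10 genes, as it called 0.0% of 20057 genes. The study did report some differentially expressed genes in this comparison, from DESeq2 with sex as a covariate, which is a different model. Ceacam1, the deleted gene, was not called by limma here either. At an unadjusted p under 0.05, 1 of the 10 passed, beside 1.53% of all genes. This was Mmp3, with a log2 difference, Ceacam1-/- minus wild type, of -1.92 ± 0.76 (limma, unadjusted p = 0.0329, adjusted p = 0.999). The Ceacam1-/- libraries 23 and 25, lowest for Mmp3 at 171 and 206, also had the lowest sums of 6 fibroblast markers among libraries without laser, 21868 and 25044 against 40888 to 79740.5 in wild type, and the part of these cells in the Mmp3 difference was not tested. Ceacam1-/- library 24 had a fibroblast sum of 78397, within the wild type range, and its Mmp3 level of 719 was below all wild type libraries. Leaving out each of the 8 libraries in turn gave -2.64 to -1.43. The other 9 differed by between -0.40 (Mmp13, SE 1.24) and 0.16 (Timp1, SE 0.42). The difference of Timp2, -0.21 ± 0.23, had the smallest error, and that of Timp3 was -0.25 ± 0.36. With 4 libraries a group, a p that misses the threshold does not show that levels were alike.

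With laser, limma called 0 of the 10 genes between genotypes, beside 0.0202% of 19757 genes. At an unadjusted p under 0.05, 2 passed, a share close to the 22.7% of all genes. They were Timp3, with a log2 difference of -1.17 ± 0.48 (limma, adjusted p = 0.186), and Timp4, with -1.01 ± 0.44 (adjusted p = 0.197). Both moved towards 0 without libraries 14, 15 and 18, to -0.07 ± 0.32 and -0.31 ± 0.42. Of RPE markers 0 of 7 were higher in Ceacam1-/- mice, with a median log2 difference of -1.56, or -0.54 without the 3. Of muscle markers 0 of 6 were, with -1.33, or -0.74 without the 3. The part of these cell types in the Timp3 and Timp4 differences was not tested. Mmp2 changed its sign, from -0.33 ± 0.47 to 0.85 ± 0.17 when libraries 14, 15 and 18 were left out (limma, unadjusted p = 1.28e-04, adjusted p = 0.184). The sign of the fibroblast markers turned as well, without passing the test. With all libraries 0 of 6 fibroblast markers were higher in Ceacam1-/- mice (median log2 difference -0.26), and without the 3, 6 of 6 were (median 0.62). Of these limma called 0, and 4 had an unadjusted p under 0.05, beside 1623 of 19316 genes in that fit. Their part in the Mmp2 difference was not tested. Of the 10 differences, 3 were above 0 with all libraries and 8 without the 3. The sign thus turned for Timp1, Timp2, Mmp2, Mmp12 and Mmp14.

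**Figure D3:**
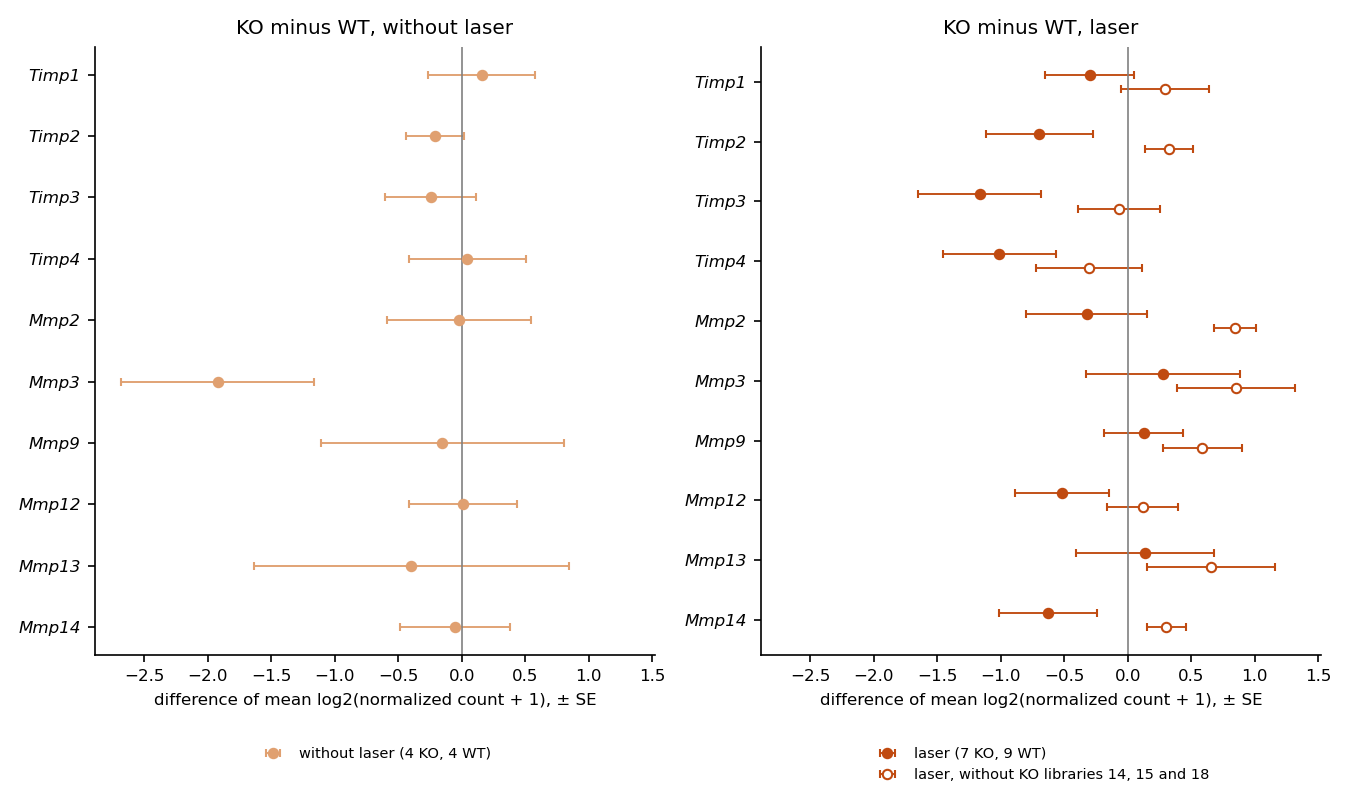
Ceacam1-/- minus wild type for the 10 genes, as the difference of mean log2(normalized count + 1) with its SE, without laser (left) and with laser (right), where open points leave out Ceacam1-/- laser libraries 14, 15 and 18. Mmp3 without laser lies farthest from 0, and with laser Mmp2 stands at -0.33 with all libraries and at 0.85 without the 3.

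The interaction asks whether the laser difference depended on genotype. No member was called by limma (0 of 10, and 0.0% of all genes), and 1 had an unadjusted p under 0.05, beside 6.22% of all genes. By limma Mmp3 had the largest interaction of the 10, 2.20 ± 1.06 on the log2 scale (unadjusted p = 0.0495, adjusted p = 0.64), and 2.78 ± 0.89 without libraries 14, 15 and 18 (unadjusted p = 0.00533, adjusted p = 0.999). Leaving out each library in turn gave 1.70 (without Ceacam1-/- library 23) to 2.92 (without Ceacam1-/- library 28). It shares the low Mmp3 values of Ceacam1-/- libraries without laser with the comparison given before. The interactions of the other 9 genes ran from -1.06 (Timp4, SE 0.73) to 0.53 (Mmp13, SE 1.19).

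Other MMPs were examined as a list of 17 genes, of which 12 were tested. With laser, limma called 3 higher in wild type, 2 higher among Ceacam1-/- libraries and 0 lower in either genotype, beside 4.23% and 2.07% of all genes called higher. At an unadjusted p under 0.05, 5 of the 12 passed in each genotype, beside 20.0% of all genes in wild type and 20.0% in Ceacam1-/- mice. Of the 12 genes, Mmp8, Mmp10 and Mmp25 had a mean under 10 in the libraries without laser and reached the minimum for testing through the laser libraries, so for these only levels are given. The counts over the 12 include these genes, and nothing is read from such counts. Among the other 9, limma called 1 higher in wild type and 0 in Ceacam1-/- mice. Without libraries 14, 15 and 18 the calls were 4 and 6 of the 12, and 2 and 4 of the 9, beside 7.82% and 7.6% of all genes called higher.

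Mmp8, the neutrophil collagenase, was at 8.14, 8.20, 1.84 and 15.6 in wild type libraries without laser, and with laser it ran from 75.7 to 355 (median 198). In Ceacam1-/- libraries it was at 2.06, 8.10, 2.98 and 7.09 without and ran from 11.7 to 217 (median 84.96) with laser. The groups did not overlap in either genotype. Mmp10, stromelysin-2, was listed at 0 in 3 of 4 wild type and all 4 Ceacam1-/- libraries without laser, so no fold is given, and it ran from 2.12 to 59.6 (median 34.4) in wild type and from 7.99 to 48.9 (median 32.6) in Ceacam1-/- laser libraries. Mmp25, a membrane-bound enzyme of leukocytes, overlapped between groups, with 0 to 20.1 without and 3.37 to 22.6 with laser in wild type. Mmp19, an enzyme that cuts basement membrane proteins, rose by 1.64 ± 0.41 (adjusted p = 0.0177) in wild type on the log2 scale. In Ceacam1-/- mice its difference was 1.02 ± 0.42 (adjusted p = 0.174), where libraries 14, 15 and 18 held 114, 206 and 129, and 1.89 ± 0.27 (adjusted p = 8.14e-05) without these. The membrane-type Mmp15, Mmp16, Mmp17 and Mmp24 and the secreted or released Mmp11, Mmp23, Mmp27 and Mmp28 did not pass in either genotype, with log2 differences between -1.43 and 1.60. Without the 3 libraries Mmp23 passed in both genotypes, with 1.02 ± 0.30 (adjusted p = 0.0317) in wild type and 1.91 ± 0.35 (adjusted p = 0.00109) in Ceacam1-/- mice. Mmp16, with 1.26 ± 0.39 (adjusted p = 0.0431), and Mmp27, with 2.17 ± 0.62 (adjusted p = 0.0306), then passed in Ceacam1-/- mice, where wild type had 0.87 ± 0.33 (adjusted p = 0.0987) and 1.60 ± 0.53 (adjusted p = 0.0576). The interaction called 0 of the 12 genes by limma with and without the 3 libraries, with 1 at an unadjusted p under 0.05 in each case. Mmp1a, Mmp1b, Mmp7, Mmp20 and Mmp21 had a mean under 10 and were not tested.

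Several of these genes are neighbours. A cluster of 10 Mmp genes covers 427.1 kb at chr9:7272514-7699587 and holds no other protein-coding gene. Along it stand Mmp13, Mmp12, Mmp1b, Mmp3, Mmp1a, Mmp10, Mmp8, Mmp27, Mmp20 and Mmp7. Of its 10 genes, 6 had a mean of at least 10. Of these, 3 belong to the set chosen on the laser response, and Mmp8 and Mmp10 reached the minimum through the laser libraries, so nothing is read from the direction of these 5. Mmp27, the sixth, lies beside Mmp8 and had a log2 difference of 1.60 ± 0.62 (adjusted p = 0.142) in wild type. The other 4 genes were under 10 in every library, the highest being Mmp7 at 8.70 in 1 wild type laser library, and Mmp20 was at 0 in all 24.

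**Figure D4:**
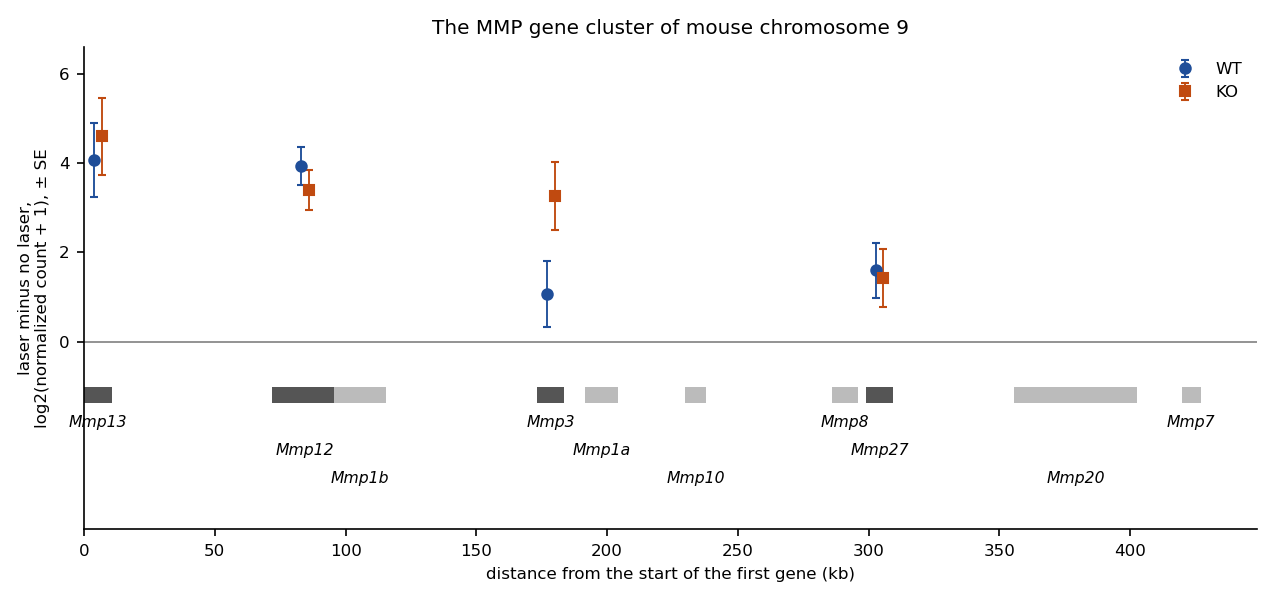
The MMP gene cluster of chromosome 9, with the distance from the start of Mmp13 in kb on the horizontal axis and the laser difference (log2 of normalized count + 1, ± SE) on the vertical axis for wild type (WT) and Ceacam1-/- (KO) mice. Bars mark genes, in dark grey where a difference is drawn, which leaves out Mmp8 and Mmp10 and the untested genes. In wild type Mmp3 stands at 1.06 and Mmp27 at 1.60.

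Further genes of MMP control and action were taken from 6 other lists, fixed by name with earlier results of these data known. Over these and the other MMPs, 68 of 74 genes were tested, of which limma called 25 higher and 0 lower with laser in wild type and 11 higher and 0 lower in Ceacam1-/- mice. Of all 19950 genes, 4.23% were called higher and 1.05% lower in wild type, and 2.07% and 1.65% in Ceacam1-/- mice. Among the 62 genes that also had a mean of at least 10 in the libraries without laser, which leaves out Mmp8, Mmp10, Mmp25, Il6, Osm and Fosl1, the calls were 20 and 8, all higher. Without libraries 14, 15 and 18 the counts were 38 higher and 0 lower in each genotype (33 and 34 of the 62), beside 7.82% higher and 2.97% lower in wild type and 7.6% and 2.57% in Ceacam1-/- mice over 19723 genes. Without wild type library 21 the wild type count was 12, beside 2.06% of all genes called higher. The Ceacam1-/- count was 7 without library 6 or without library 24, and 3 without library 25, beside 1.52%, 1.07% and 0.667%. The median log2 difference of the 68 was 1.06 in wild type and 0.55 in Ceacam1-/- mice, beside -0.10 and 0.02 over all genes tested. The 68 include the 6 genes that reached the minimum through the laser libraries, so nothing is read from these medians.

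Of 20 inducers of MMP and TIMP genes, limma called 9 higher in wild type and 4 in Ceacam1-/- mice, or 6 and 3 of the 17 that had a mean of at least 10 without laser. When libraries 14, 15 and 18 were left out, the calls were 10 and 9 of the 20, and 7 and 7 of the 17. The cytokine genes Osm and Il6 and the AP-1 subunit gene Fosl1 were the 3 that reached this minimum through the laser libraries. Osm was at 0 to 11.1 without and 21.9 to 133 with laser in wild type, and at 3.02 to 15.8 and 4.17 to 88.6 in Ceacam1-/- libraries. Il6 was at 0 to 10.2 and 9.95 to 78.5 in wild type, where the groups met, and at 0 to 5.24 and 7.14 to 42.6 in Ceacam1-/- libraries, where they did not overlap. Fosl1 overlapped between groups in wild type, at 0 to 7.86 and 3.37 to 49.2. Il1b, which encodes interleukin-1 beta, rose by 1.89 ± 0.53 (adjusted p = 0.039) in wild type and by 2.66 ± 0.56 (adjusted p = 0.00983) in Ceacam1-/- mice. Lif, an IL-6 family cytokine gene, rose by 2.02 ± 0.54 (adjusted p = 0.038) in Ceacam1-/- mice. Of 5 tested activating proteases, 1 rose in wild type, Plau (urokinase), by 2.37 ± 0.57 (adjusted p = 0.0147). Of the same 5 genes limma called 0 in Ceacam1-/- mice, and 1 had an unadjusted p under 0.05. Without libraries 14, 15 and 18, 2 passed in each genotype, in Ceacam1-/- mice Plau with 2.39 ± 0.63 (adjusted p = 0.0181) and Pcsk5, a proprotein convertase gene, with 0.94 ± 0.23 (adjusted p = 0.013). Of 8 other inhibitors and clearance factors, 4 rose in wild type, 1 rose in Ceacam1-/- mice, and leaving out the 3 libraries gave 6 in each genotype. In wild type they included Tfpi2, a protease inhibitor of the matrix, with 2.60 ± 0.59 (adjusted p = 0.00944), and the matrix glycoprotein gene Thbs1, with 1.93 ± 0.44 (adjusted p = 0.00881).

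Of 7 cell-surface partners of MMPs and TIMPs, 3 rose in wild type. They were the urokinase receptor gene Plaur, 2.95 ± 0.40 (adjusted p = 6.27e-05), the MMP9 docking molecule Cd44, 1.58 ± 0.36 (adjusted p = 0.00868), and Cd74, 1.49 ± 0.37 (adjusted p = 0.0196). Of these, 1 rose in Ceacam1-/- mice, Plaur, by 1.94 ± 0.41 (adjusted p = 0.0116). Leaving out libraries 14, 15 and 18 gave 5 calls in each genotype. Of 12 substrates, 4 rose in wild type, 2 rose in Ceacam1-/- mice, and leaving out the 3 libraries gave 9 in each. Spp1 (osteopontin) rose by 4.92 ± 0.47 (adjusted p = 9.00e-07) and 4.22 ± 0.49 (adjusted p = 3.49e-05), Fn1 (fibronectin) by 2.10 ± 0.39 (adjusted p = 0.00204) and 1.73 ± 0.41 (adjusted p = 0.0202), and Col3a1 by 2.50 ± 0.57 (adjusted p = 0.00957) in wild type. Of 4 other metalloproteinases that TIMP3 inhibits, the sheddases Adam10 and Adam17 and the aggrecanases Adamts4 and Adamts5, 1 rose in each genotype, Adam10 by 0.75 ± 0.22 (adjusted p = 0.049) in wild type and Adamts5 by 0.79 ± 0.22 (adjusted p = 0.0422) in Ceacam1-/- mice. Without the 3 libraries Adamts5 was no longer called in Ceacam1-/- mice, with 0.65 ± 0.23 (adjusted p = 0.0751), and Adam10 was, with 0.83 ± 0.22 (adjusted p = 0.0173), while 2 were called in wild type. With a photoreceptor covariate in the fit, limma called 0 of the 4 in either genotype (lowest adjusted p = 0.0521 in wild type and 0.0706 in Ceacam1-/- mice). The interaction called 0 of the 68 genes by limma, with 5 at an unadjusted p under 0.05, so a response that depended on genotype was not shown for any of them.

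Markers of cell types moved with laser too. Of 8 myeloid markers, 7 rose in wild type and 5 in Ceacam1-/- mice by limma (8 and 7 without libraries 14, 15 and 18), and their summed level, led by Lyz2, was 9249 to 19289.9 without and 41913 to 115153 with laser in wild type. In Ceacam1-/- libraries this sum was 9039.5 to 12757 without and 14355 to 80086 with laser. Of 7 neutrophil markers 4 were tested, of which 2 and 1 rose (2 and 2 without libraries 14, 15 and 18). Their sum, led by Csf3r in wild type, was 109 to 176 without and 279 to 1061 with laser in wild type. In Ceacam1-/- libraries it was 159 to 256 and 238 to 788. In every library at least 1 of the 7 neutrophil markers was at 0. Of 6 fibroblast markers, led by Dcn, 1 rose in each genotype (3 and 5 without libraries 14, 15 and 18), and their sum was 40888 to 79740.5 in wild type and 21868 to 90715 in Ceacam1-/- libraries without laser. In laser libraries it was 95905 to 192139 in wild type and 21345 to 255485 in Ceacam1-/- mice, with libraries 14, 15 and 18 at 21345, 57129.5 and 42659. Of the 7 RPE and 7 photoreceptor markers limma called 0 in either genotype, where 0 and 6 RPE markers and 0 and 0 photoreceptor markers had an unadjusted p under 0.05 in wild type and Ceacam1-/- mice. Without libraries 14, 15 and 18 these were 1 and 0 RPE markers and 0 and 0 photoreceptor markers. With laser, 0 of 7 photoreceptor markers were higher in wild type (median log2 difference -1.52). In Ceacam1-/- mice 7 of 7 were (2.34, or 0.60 without the 3). RPE markers were higher for 3 of 7 in wild type (-0.12) and 0 of 7 in Ceacam1-/- mice (-1.66, or -0.66 without the 3). Muscle markers were higher for 0 of 6 in each genotype (-0.95 and -2.09, the latter -1.55 without the 3). Markers of endothelial (led by Plvap), muscle, mast (Kit), mural (Rgs5), glial (Rlbp1) and melanocyte (Dct) cells also had 0 calls in either genotype. At an unadjusted p under 0.05, 2 of 6 endothelial and 1 of 6 muscle markers passed in wild type, and 6 of 6 muscle, 1 of 5 mast and 1 of 5 glial markers in Ceacam1-/- mice. Without libraries 14, 15 and 18, 5 and 2 endothelial, 1 and 4 muscle, 1 and 1 mural, 1 and 2 melanocyte and 0 mast or glial markers did. Of all 19723 genes tested in that fit, 5099 did in wild type and 4717 in Ceacam1-/- mice. Among these 0-call lists, leaving out libraries 14, 15 and 18 added calls of 1 mural marker in wild type and 1 melanocyte marker in Ceacam1-/- mice. The part of these cell types in the laser differences was not tested.

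Within groups, several members followed the level of a cell type list from library to library. Each group's mean was subtracted from the log2 values of the gene and from the mean log2 level of the list, over 24 libraries, and 9 pairs were tested by permutation within groups. Mmp2 and the fibroblast list gave r = 0.97, Spearman's coefficient = 0.99, permutation p = 1.00e-05 and 1.00e-05, adjusted 4.50e-05 and 4.50e-05, where 1e-05 is the smallest p the permutations can give. The r was 0.96 without the 2 libraries farthest on the list and 0.93 without libraries 14, 15 and 18. Timp2 (r = 0.91, Spearman's coefficient = 0.89, permutation p = 1.00e-05 and 1.00e-05, adjusted 4.50e-05 and 4.50e-05) and Mmp14 (r = 0.92, Spearman's coefficient = 0.88, permutation p = 5.00e-05 and 1.50e-04, adjusted 1.50e-04 and 4.50e-04) followed the same list, with r of 0.84 and 0.88 without the 2 farthest and 0.60 and 0.76 without the 3 libraries. Mmp3 and the fibroblast list had r = 0.68, Spearman's coefficient = 0.63, permutation p = 0.00481 and 0.0088, adjusted 0.00743 and 0.0132. Without the 2 farthest libraries, Ceacam1-/- laser libraries 4 and 14, this pair had r = 0.48 and a Spearman's coefficient of 0.53, which did not pass (adjusted permutation p = 0.0907 and 0.058). When libraries 14, 15 and 18 were left out it passed, with r = 0.81 and a Spearman's coefficient of 0.83 (adjusted permutation p = 9.45e-04 and 5.70e-04).

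Timp1 and the myeloid list had r = 0.68, Spearman's coefficient = 0.70, permutation p = 8.00e-04 and 9.80e-04, adjusted 0.0018 and 0.0022, with r = 0.65 without the 2 farthest. Without libraries 14, 15 and 18, r was 0.49 and Spearman's coefficient 0.44, and neither passed (adjusted permutation p = 0.061 and 0.0932). Mmp12 and the myeloid list had r = 0.59, Spearman's coefficient = 0.64, permutation p = 0.012 and 0.00198, adjusted 0.0154 and 0.00356, with r = 0.70 without the 2 farthest. Without the 3 libraries this pair had r = 0.53 and a Spearman's coefficient of 0.48 (adjusted permutation p = 0.0428 and 0.0778), of which the latter no longer passed. Timp4 and the muscle list had r = 0.63, Spearman's coefficient = 0.51, permutation p = 0.00495 and 0.0213, adjusted 0.00743 and 0.0273. Without the 2 farthest libraries its r was 0.50 and its Spearman's coefficient 0.54 (adjusted permutation p = 0.0554 and 0.0329), of which the latter still passed. Without the 3 libraries the r of this pair was 0.50 and its Spearman's coefficient 0.48 (adjusted permutation p = 0.0624 and 0.0778). Mmp9 did not follow the neutrophil list (r = -0.20, Spearman's coefficient = -0.19, permutation p = 0.25 and 0.336, adjusted 0.25 and 0.336), with r = -0.25 without the 2 farthest, and the relation of Mmp13 to the fibroblast list did not pass (r = 0.45, Spearman's coefficient = 0.41, permutation p = 0.0718 and 0.106, adjusted 0.0807 and 0.119), with r = 0.46 without the 2 farthest. Without libraries 14, 15 and 18, Mmp9 had r = -0.39 and a Spearman's coefficient of -0.37 (adjusted permutation p = 0.0526 and 0.0932). Mmp13 then had r = 0.49 and a Spearman's coefficient of 0.36 (adjusted permutation p = 0.15 and 0.212), and neither pair passed. Of the 7 neutrophil markers, 4 reached the minimum for testing, and at least 1 was at 0 in every library. The score of this list is therefore imprecise, and the Mmp9 result does not show that no relation exists. Timp3 and the RPE list, a pair that the choice of the set had used, had r = 0.86 and 0.71 without libraries 14, 15 and 18, given without a test.

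**Figure D5:**
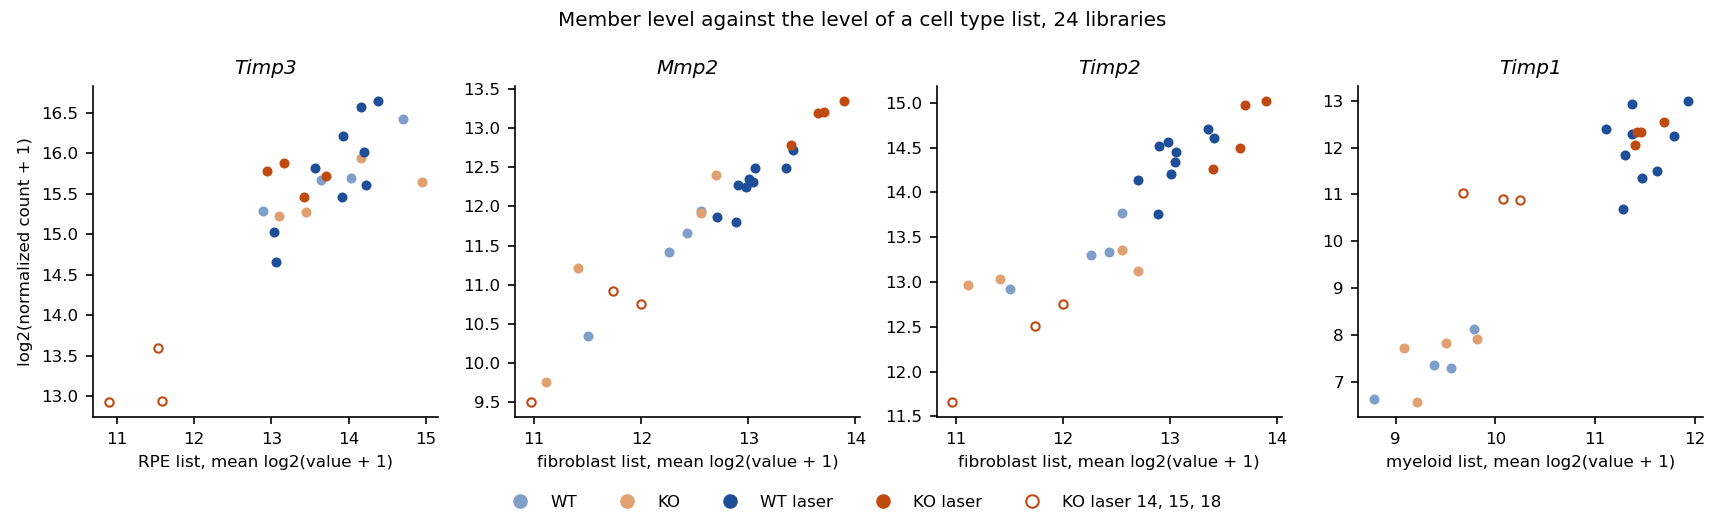
Level of Timp3, Mmp2, Timp2 and Timp1, as log2(normalized count + 1) on the vertical axis, against the mean log2(value + 1) of the RPE, fibroblast or myeloid list on the horizontal axis, in 24 libraries coloured by group (WT, wild type, KO, Ceacam1-/-), before group means were subtracted. Open points are Ceacam1-/- laser libraries 14, 15 and 18, which are lowest for Timp3 and the RPE list.

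The genes whose levels were most alike over the 24 libraries, by Pearson's r of log2 values after group means were subtracted among 19949 other genes, were listed for 6 members as a description. For Timp3 they were Col8a2 (0.98), Cpxm2 (0.97) and Gab2 (0.97), the first a collagen VIII gene, with r = 0.95 for Col8a2 without libraries 14, 15 and 18. For Timp2 they were Fkbp9 (0.98), Cd302 (0.97) and Ccdc80 (0.96), with r = 0.90 for the first without these libraries. For Mmp2 they were Col1a2 (0.97), Bicc1 (0.97) and Igsf10 (0.97), the first a collagen I gene with 0.93 without them. For Mmp14 they were Fzd2 (0.96), Shisa5 (0.96) and Anxa5 (0.96), and for Timp1 Tmem219 (0.95), Akr1b8 (0.93) and Ssr4 (0.93), with 0.87 and 0.92 for the first of each without the 3. In the order given, the genes ranked 1, 5 and 6 for Timp3 without libraries 14, 15 and 18, and 1, 10 and 12 for Timp2. They then ranked 2, 3 and 5 for Mmp2, 10, 1 and 12 for Mmp14, and 4, 17 and 13 for Timp1. The nearest genes of Mmp12 were Glt8d1 (0.79), Numbl (0.79) and Galns (0.78). When libraries 14, 15 and 18 were left out, these had r of 0.61, 0.60 and 0.69, and the nearest became Atp6v0d2 (0.80), Stra6l (0.79) and Plbd2 (0.78). All of these values share libraries and their composition.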

How the data were processed

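Choroidal RNA was sequenced from SMART-Seq libraries. The authors quantified reads with Salmon 1.10.3 against GRCm39 (GENCODE vM35) and deposited 1 table of DESeq2 1.44.0 normalized counts for 24 libraries, used here as signal values (FastQC 0.11.5 also stands in the submitters' processing notes). Low values were whole multiples of a common step within 5% for 35.9% to 77.2% of values, so reads were not recovered and no count model was fitted. The strand setting is not given in the sources used here. Groups came from the labels. Values of some list genes are not reported here. Sex is not given per library, so a sum of Y-linked genes served as a covariate in an alternative.

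limma 3.58.1 (R 4.3.3) was run on log2(value + 1) with a variance trend, for genes with a mean of at least 10 over the libraries of a fit, with Benjamini-Hochberg adjustment over all genes tested and a threshold of 0.05. Fold changes are on this scale, which understates changes of low genes. Genotype was fitted in the 8 libraries without and the 16 with laser, laser and interaction in all 24. The fit and the correlations were checked on simulated data. The 10 genes, the pathway and marker lists and the tests were chosen with earlier results of these data known. Named were, besides the 10 genes, Ceacam1 and overlapping genes, the other MMPs with a mean of at least 10 and up to 3 called genes of largest difference per list and direction, with the 3 nearest genes for 6 members. Overlapping genes outside this rule (Gm45472 and Gm62879), Mmp8 and Mmp10 in the promoter search, Pcsk5, the nearest genes of Mmp12 without 3 libraries and the untested MMPs were named after their values were seen. GENCODE vM39 gave coordinates and canonical transcripts (99.1% of identifiers matched), and sequences were read from GRCm39. Correlations used 100000 permutations within groups. Alternatives were pseudocounts of 0.5 and 10, no filter and a minimum mean of 50, upper-quartile and quantile scaling, no trend, array weights, other sets of groups in the fit, the Y-linked covariate, each library left out, and, chosen after seeing the data, a photoreceptor covariate, leaving out Ceacam1-/- laser libraries 14, 15 and 18, and, for the pathway genes, a mean of at least 10 in the libraries without laser as well. Tables were handled in pandas 2.3.3 and figures drawn with matplotlib 3.10.9 (Python 3.11.15), and permutations used numpy 2.4.6, with ranks from scipy 1.17.1.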

Additional observations from a re-analysis of the deposited data

Results flagged for a closer look

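Among 40 combinations of gene and group, 2 single libraries lay far from the rest of their group by Dixon's criterion, which flags about 1 in 20 by chance. Timp1 in Ceacam1-/- library 23 without laser was 93.09, against 210.2 to 239 in the other 3 libraries of the group, and this library also held a photoreceptor sum of 556460.0. Mmp3 in Ceacam1-/- laser library 14 was 397.7 on the normalized count scale, against 3113 to 14087 in the other 6, and this library is 1 of the 3 with low RPE and high photoreceptor levels. The part of these markers in the 2 values was not tested.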

How the results depend on the processing

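Counts of the 10 genes called for genotype or interaction were 0 under every alternative run. The median log2 laser difference of the 10 genes, a description, was 1.48 in wild type and 2.29 in Ceacam1-/- mice. It ran from 1.25 to 1.68 and from 2.26 to 3.04 over the alternatives, the highest value in Ceacam1-/- mice being that without libraries 14, 15 and 18, and from 1.22 to 1.68 and from 1.95 to 2.66 leaving out each library. Beside Mmp13, single libraries moved the laser fold of Mmp9 and Mmp3 by over 1.5 times from its value with all libraries. The log2 difference of Mmp9 ran from 2.88 to 4.03 (without library 22 and 21) in wild type. In Ceacam1-/- mice Mmp3 ran from 2.77 to 3.98 (without library 23 and 28) and Mmp9 from 3.07 to 4.24 (without library 25 and 23). From lowest to highest, 3 more spanned over 1.5 times in Ceacam1-/- mice. They were Mmp2, 0.11 to 1.04 (without library 23 and 14), Timp4, -2.65 to -1.95 (without 4 and 25), and Mmp12, 3.08 to 3.73 (without 23 and 15). The other pathway genes called in wild type numbered 25, beside 5.28% of all genes called in either direction. They were 53 with array weights (32.6% of all genes), 38 without libraries 14, 15 and 18 (10.8%), 42 with the compared groups alone (11.6%), and 12 (without wild type library 21, 2.4%) to 31 (without Ceacam1-/- library 14, 6.34%, or 23, 6.32%) leaving out each library. In Ceacam1-/- mice they numbered 11, beside 3.72%, and 7 with no filter (1.08%), 34 with array weights (17.8%), 25 with the photoreceptor covariate (4.38%), 38 without the 3 libraries (10.2%), 2 with the compared groups alone (0.187%), and 3 (without library 25, 0.742%) to 13 (without library 14, 3.41%) leaving out each library. The cause was not tested.

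Differences of the 10 genes that were not called changed sign as follows, on the log2 scale. With the photoreceptor covariate, the sign turned for genotype without laser Timp1 -0.19, Timp4 -0.23, Mmp9 0.66 and Mmp12 -0.26, and for genotype with laser Timp1 0.18 and Mmp2 0.32, and for interaction Timp1 0.37, Timp2 0.22, Mmp2 0.75, Mmp9 -0.25, Mmp12 0.11 and Mmp14 0.17. Without Ceacam1-/- laser libraries 14, 15 and 18, the sign turned for genotype with laser Timp1 0.29, Timp2 0.32, Mmp2 0.85, Mmp12 0.12 and Mmp14 0.30, and for interaction Timp1 0.13, Timp2 0.54, Timp3 0.18, Mmp2 0.87, Mmp12 0.11 and Mmp14 0.36. With array weights, the sign turned for genotype without laser Timp3 0.030, Mmp2 0.33 and Mmp14 0.17, and for genotype with laser Timp1 0.27, Timp2 0.012, Mmp2 0.51 and Mmp14 0.063, and for interaction Timp2 0.062 and Mmp2 0.17. With upper-quartile scaling, the sign turned for genotype without laser Mmp2 0.0028. With the Y-linked covariate, the sign turned for genotype with laser Mmp9 -0.025 and Mmp13 -0.21. Leaving out each library in turn spanned 0 for genotype without laser Timp1 -0.086 to 0.47, Timp4 -0.38 to 0.30, Mmp2 -0.38 to 0.50, Mmp9 -0.73 to 0.50, Mmp12 -0.31 to 0.34, Mmp13 -1.02 to 0.60 and Mmp14 -0.39 to 0.16, and for genotype with laser Mmp2 -0.56 to 0.084 and Mmp13 -0.18 to 0.44, and for interaction Mmp2 -0.82 to 0.11, Mmp9 -0.38 to 0.85 and Mmp13 -0.46 to 1.16. Of the correlations, the r of Timp1 with the myeloid list and of Timp4 with the muscle list (both without the 3 libraries), of Mmp3 with the fibroblast list and Mmp12 with the myeloid list (both in the 16 laser libraries alone), and of Mmp3 and Timp4 with their lists without the 2 farthest libraries no longer passed. Spearman's coefficient no longer passed for Timp1, Timp4 and Mmp12 without the 3 libraries, for Mmp3 and Timp4 in the laser libraries alone, and for Mmp3 without the 2 farthest. No paired analysis was possible because library numbers are unique and groups share none. DESeq2 on counts was not run because reads were not recovered. Genes at low levels, such as Mmp13 and Mmp10 without laser, are limited by depth, and 4 libraries per group without laser limit the genotype test.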

Other observations

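Among the 10 genes themselves, levels after subtraction of group means were most alike for Mmp2 and Mmp14, the enzyme and its membrane-bound activator, with r = 0.90 over 24 libraries and 0.77 without Ceacam1-/- laser libraries 14, 15 and 18. Timp2, the third protein of this activation complex, had r = 0.89 with Mmp2 and 0.88 with Mmp14, and 0.59 and 0.57 without the 3. Timp3, which is not part of this complex, had 0.87 with Timp2, 0.74 with Mmp2 and 0.71 with Mmp14. Without the 3 libraries these were 0.52, 0.24 and 0.05. Mmp2 and Mmp3 had 0.70 and 0.77. Timp1 and Mmp9, both high with laser, had -0.11 and -0.37 within groups. These values share libraries and their composition and are given without a test.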
